A study of Mus musculus with 6 samples.

Results

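Antiviral effectors induced by type I interferon were followed in stimulated mouse macrophages with and without Tet2. They were a set of 44 genes chosen by name as interferon-stimulated antiviral effectors. Many of their products block viruses or sense their nucleic acids, and some, such as Usp18, Oasl1 and Adar, restrain signalling or sensing. The rule uses no measured value, but the choice was made with earlier results of these data known. Of these 43 were found by symbol among 25206 gene-level features, and Ifi44 was not analysed here. The cells were peritoneal macrophages, phagocytes drawn into the abdominal cavity by thioglycollate broth (1 mL of a 4% medium) and taken 4 days later. The Tet2-deficient group held 3 biological replicates from Tet2-/- mice and the wild-type group 3 from littermates, all on the C57BL/6J background. Tet2 is an enzyme that oxidises 5-methylcytosine in DNA. Every culture of both groups was treated for 10 h with 10 ng/mL lipopolysaccharide (LPS), a cell wall component of bacteria that macrophages sense, and 2 ng/mL interferon gamma. No unstimulated culture was measured, so each value describes the stimulated state. The labels do not say which part of Tet2 was removed, how old the animals were, or whether replicates came from 1 animal each.

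LPS makes macrophages secrete interferon beta through the adaptors Ticam1 and Ticam2 and the factor Irf3. The secreted interferon binds the receptor Ifnar1-Ifnar2, whose kinases activate Stat2. A complex that holds Stat2 and Irf9 then binds the interferon-stimulated response element in the promoters of antiviral genes. Interferon gamma signals through another receptor and induces an overlapping group of genes.

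Each culture gave 1 array with log2 expression values. The median level of an array lay between 3.47 and 3.60 in the Tet2-deficient group and between 3.54 and 3.66 in the wild-type group. Tet2 itself had levels of 5.55, 5.25 and 5.75 in Tet2-deficient arrays, against 5.40, 5.07 and 5.10 in wild-type arrays, so the targeted gene was not lower (0.32 ± 0.16, adjusted p = 0.365). Where its probes lie relative to the deletion is not given, so every direction rests on the sample labels. General macrophage markers were well above the array medians: the 10 measured of 12 averaged a log2 level of 9.97 to 10.05 in Tet2-deficient arrays and 9.86 to 9.88 in wild-type arrays. Of these 10, 2 rose and 0 fell, where 0.647% and 0.305% of all features did. Those that rose were Itgam (0.97 ± 0.14, adjusted p = 0.0211) and Cd14, a co-receptor for LPS (0.97 ± 0.13, adjusted p = 0.0152). The part of Cd14 in the effectors' values was not tested. Each change is a log2 difference, Tet2-deficient minus wild-type. The error after ± is the standard error (SE) from limma fitted on all features, with 3 arrays in a group. A gene was called at a Benjamini-Hochberg adjusted p under 0.05.

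More antiviral effectors had a negative than a positive change in Tet2-deficient macrophages, as did all features, and no single one was called. Without Tet2-deficient replicate 2 the effectors' median change was near that of all features, as given below. Of 43 genes 0 rose and 0 fell, where limma called 0.952% of all features, 0.647% as higher and 0.305% as lower. With array weights the count was also 0, at 1.98% of all features. The log2 change was negative for 28 (65.1%, where 57.9% of all features were) and positive for 15. Its median was -0.14, against -0.04 over all features. At an unadjusted p under 0.05, 11 of the 43 (25.6%) were lower and 3 (6.98%) were higher, where 8.37% and 7.63% of all features were. The arrays of the groups did not overlap for 15 genes that were lower (34.9%, where the share of all features is 12.2%) and for 4 that were higher (9.30%, where it is 9.74%). The shares exceeded those of all features on the lower side. All 43 effectors were among the features above the median level, however. Fitted on that brighter part alone, limma called 6.71% of features, against 0.952% of all. The shares of all features above thus include dim features, where fewer are called, and are not shares of genes of like level. These genes are not independent of each other, as the next paragraphs show, so a share over them carries no test.

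**Figure D1:**
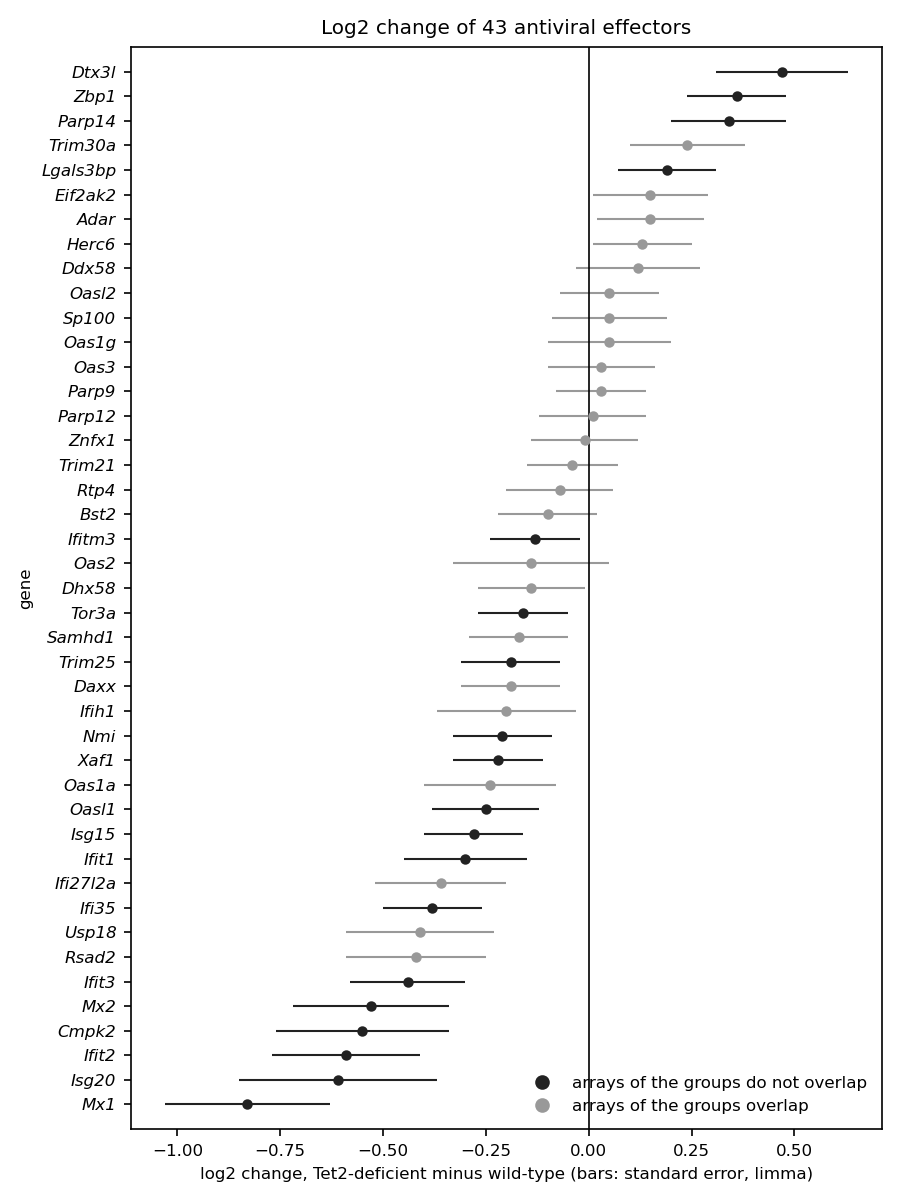
Log2 change of each of the 43 antiviral effectors (x axis, Tet2-deficient minus wild-type; points, estimate; bars, standard error from limma; 3 arrays in a group), in order of value. Changes run from 0.47 for Dtx3l to -0.83 for Mx1, and black points mark genes whose arrays did not overlap between the groups.

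The effectors moved together from array to array, and 1 culture of each group stood apart. Tet2-deficient replicate 2 was lowest of all 6 arrays for 29 of the 43 genes (67.4%), whereas it was lowest for 15.7% of all features. Wild-type replicate 3 was highest for 20 of them (46.5%), against 18.6% of all features. The mean deviation of the 43 genes from their own 6-array means was 0.02, -0.26 and 0.04 in Tet2-deficient replicates 1, 2 and 3, against 0.04, 0.00 and 0.16 in wild-type replicates 1, 2 and 3. In this mean over genes with changes of both signs, Tet2-deficient replicates 1 and 3 thus lay at the level of wild-type replicates 1 and 2. Single genes did not all do so. Mx1 was at 9.16 and 9.28 in these Tet2-deficient arrays, against 9.73 and 9.77 in these wild-type arrays. Zbp1 was at 10.27 and 10.14, against 9.77 and 9.74.

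The same order showed inside each genotype. Within the Tet2-deficient group 39 of the 43 genes were lowest in replicate 2, against 32.5% of all features, and 42 lay below their group mean there. Within the wild-type group 32 of the 43 were highest in replicate 3, against 31.6% of all features. Over the 903 pairs of effectors the median Pearson r of deviations from the group means was 0.67, and 93.0% of pairs had a positive r. These correlations are over 6 arrays that all genes share, and describe those arrays. By levels over all 6 arrays, Oas1a (r = 0.99 with the mean of the other 42 genes) and Ifih1 (0.98) followed the common pattern most closely. By this measure, which includes the difference between the genotypes, Zbp1 (-0.25), Trim30a (-0.14), Parp14 (-0.12) and Dtx3l (-0.04) did not follow it. Inside the Tet2-deficient group these genes too were lowest in replicate 2.

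**Figure D2:**
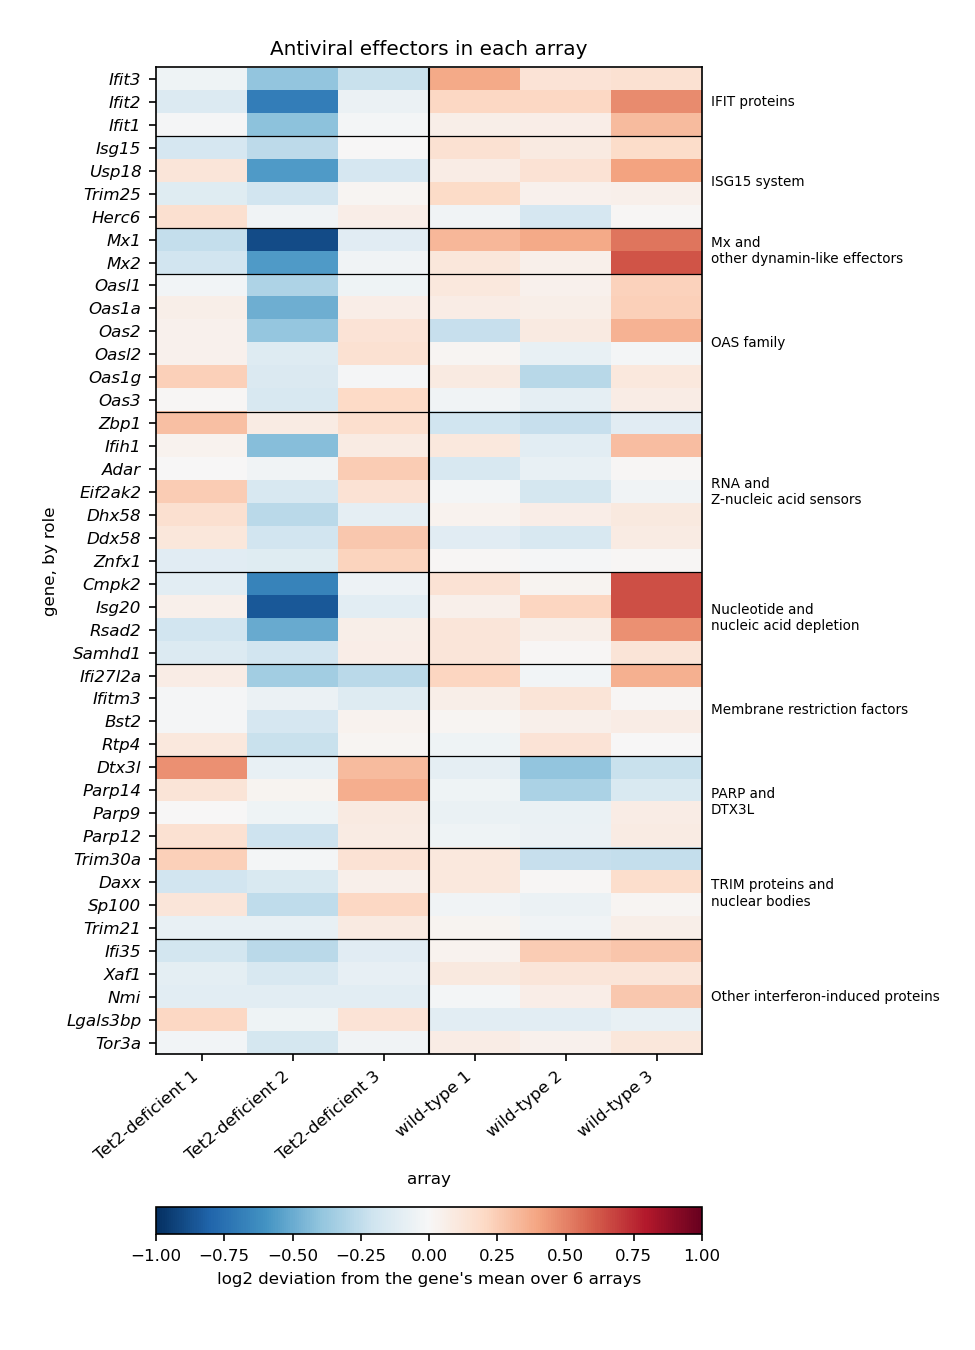
Log2 deviation of each effector (rows, grouped by role) from its own mean over 6 arrays (columns; Tet2-deficient left of the line, wild-type right of it; blue lower, red higher). The column of Tet2-deficient replicate 2 is blue for most genes and that of wild-type replicate 3 is mostly red, while Zbp1 and Parp14 are red in all 3 Tet2-deficient columns.

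Without Tet2-deficient replicate 2 the median change of the 43 genes was -0.04, against -0.05 over all features in that fit, with 25 negative and 18 positive. The number lower at an unadjusted p under 0.05 was then 4, at 8.64% of all features. Without wild-type replicate 3 the median was -0.12 and the number was 4, at 6.65% of all features. Leaving out any 1 of the other 4 arrays left it at 9. Markers of resident peritoneal macrophages moved with the groups in the same arrays. Of 10 measured, 3 rose and 0 fell, where 0.647% and 0.305% of all features did. All 10 had a positive change, where 57.9% of all features had a negative one, and their mean log2 level was 6.42, 6.93 and 6.71 in Tet2-deficient arrays, against 5.98, 5.76 and 5.64 in wild-type arrays. Tet2-deficient replicate 2 was highest and wild-type replicate 3 lowest for that list, the reverse of the effectors. Mesothelium and fibroblast markers, 9 of 13 of them with a positive change, averaged 4.07, 4.62 and 3.86 in Tet2-deficient arrays, against 3.76, 4.17 and 3.83 in wild-type arrays, again highest in Tet2-deficient replicate 2. The fibroblast markers Col1a1, Col1a2, Col3a1, Dcn and Pdgfra were highest in that array, and so were the mesothelium markers Upk3b, Krt18 and Lrrn4. Msln, Krt19, Krt8 and Wt1 of mesothelium and Lum of fibroblasts were not. B cell markers went the other way, with 5 of 7 lowest in Tet2-deficient replicate 2 (mean deviation -0.29), where 15.7% of all features were. Their mean level there was 3.46, near the array medians. The 5 measured monocyte markers were highest on average in Tet2-deficient replicate 1 (mean deviation 0.49). The part of these cells in the effectors' pattern was not tested. In RNA of a mixed culture, fewer cells of a type and less RNA per cell cannot be told apart.

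Mx1 and Mx2 encode dynamin-like GTPases that trap viral nucleocapsids. The RefSeq table lists both as transcribed pseudogenes, since the C57BL/6 strain carries defective alleles, but their transcripts still respond to interferon. Mx1 had log2 levels of 9.16, 8.50 and 9.28 in the Tet2-deficient arrays, against 9.73, 9.77 and 9.93 in the wild-type arrays. The groups did not overlap, and the SD was 0.42 among the Tet2-deficient arrays and 0.11 among the wild-type arrays. Mx1 stood at 56.2% of the wild-type level, with the largest size of change among the effectors (log2 change -0.83 ± 0.20, adjusted p = 0.0826). It passed the threshold with a trended and robust prior (adjusted p = 0.0311, where 3.23% of all features were called) and when features below the median level were left out (0.0392, where 6.71% were). At an adjusted p under 0.10, where 3.14% of all features lay, Mx1 was the only effector. Leaving out 1 array in turn gave changes of -0.98 to -0.59 and adjusted p of 0.0933 to 0.236. For Mx2 the levels were 6.40, 6.02 and 6.55 in Tet2-deficient arrays, against 6.70, 6.64 and 7.22 in wild-type arrays. Its groups did not overlap either, and Mx2 had a change of -0.53 ± 0.19 (adjusted p = 0.220).

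IFIT proteins bind foreign 5' ends of RNA and block their translation. All 3 lay lower in every Tet2-deficient array than in any wild-type array, as did 12.2% of all features. Ifit2 had levels of 9.43, 8.87 and 9.51 in Tet2-deficient arrays, against 9.77, 9.77 and 10.04 in wild-type arrays, or 66.6% of the wild-type level (-0.59 ± 0.18, adjusted p = 0.158). Ifit3 had 4.62, 4.27 and 4.44 in Tet2-deficient arrays, against 5.04, 4.80 and 4.82 in wild-type arrays (-0.44 ± 0.14, adjusted p = 0.154). Ifit1 had 10.48, 10.08 and 10.47 in Tet2-deficient arrays, against 10.55, 10.56 and 10.81 in wild-type arrays (-0.30 ± 0.15, adjusted p = 0.372). Without Tet2-deficient replicate 2 the changes were -0.39 for Ifit2, -0.36 for Ifit3 and -0.17 for Ifit1. Ifit3 has a near-identical copy, Ifit3b, which was not analysed here, and array probes may not tell such copies apart.

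The small ubiquitin-like protein Isg15 is joined to newly made proteins by the E1 enzyme Uba7, the E2 enzyme Ube2l6 and, in mice, the ligase Herc6, and is taken off again by Usp18. Isg15 had levels of 9.15, 9.06 and 9.32 in Tet2-deficient arrays, against 9.47, 9.41 and 9.50 in wild-type arrays. The difference was small but its groups did not overlap (82.3% of the wild-type level, -0.28 ± 0.12, adjusted p = 0.291). For Usp18, which also shuts off signalling at Ifnar2, levels were 10.01, 9.32 and 9.72 in Tet2-deficient arrays, against 9.96, 10.03 and 10.29 in wild-type arrays, with overlap (-0.41 ± 0.18, adjusted p = 0.310). Trim25, a ligase that activates the RNA sensor encoded by Ddx58, had 8.76, 8.69 and 8.90 in Tet2-deficient arrays, against 9.07, 8.92 and 8.93 in wild-type arrays (-0.19 ± 0.12, adjusted p = 0.480). The ligase Herc6 leaned the other way, with 9.22, 9.03 and 9.13 in Tet2-deficient arrays, against 9.03, 8.89 and 9.07 in wild-type arrays (0.13 ± 0.12, adjusted p = 0.649). Uba7 (-0.37 ± 0.17, adjusted p = 0.327) and Ube2l6 (0.10 ± 0.14, adjusted p = 0.784), which are not among the 44 genes, were not called. The enzymes of this pathway therefore had changes of both signs, none of them called.

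Enzymes that degrade or alter nucleic acids and nucleotides were lower on average, all 4 with a negative change. Isg20 is an exonuclease that degrades viral RNA. It had levels of 8.71, 7.81 and 8.55 in Tet2-deficient arrays, against 8.71, 8.87 and 9.30 in wild-type arrays (-0.61 ± 0.24, adjusted p = 0.257). The groups met at 8.71 and were counted above as not overlapping by under 0.01, and without Tet2-deficient replicate 2 the change was -0.33. Rsad2, or viperin, makes a chain-terminating nucleotide from the CTP that Cmpk2 helps to supply, and these genes are neighbours on chromosome 12. Rsad2 had 10.99, 10.68 and 11.24 in Tet2-deficient arrays, against 11.30, 11.24 and 11.64 in wild-type arrays (-0.42 ± 0.17, adjusted p = 0.267). Cmpk2 had 9.97, 9.40 and 10.02 in Tet2-deficient arrays, against 10.22, 10.10 and 10.72 in wild-type arrays (-0.55 ± 0.21, adjusted p = 0.238). Both were lowest in Tet2-deficient replicate 2 and highest in wild-type replicate 3. Samhd1, which hydrolyses deoxynucleotides, had 10.93, 10.88 and 11.14 in Tet2-deficient arrays, against 11.19, 11.08 and 11.20 in wild-type arrays, with overlap (-0.17 ± 0.12, adjusted p = 0.554).

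**Figure D3:**
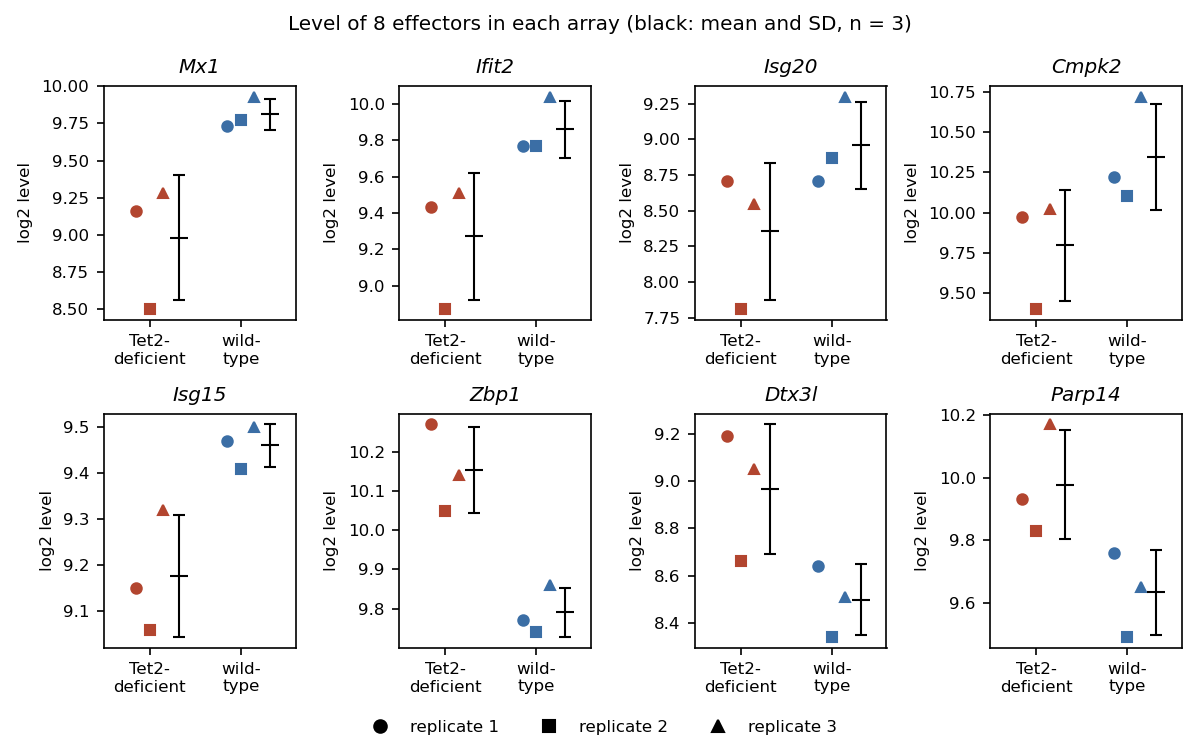
Log2 level (y axis, a separate scale for each gene) of 8 effectors in each array, Tet2-deficient left and wild-type right, with the mean and SD of 3 arrays in black. Replicate 2 (square) is the lowest Tet2-deficient point in all 8 panels, including Zbp1, Dtx3l and Parp14, whose Tet2-deficient points all lie above the wild-type points.

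The largest positive changes were those of Dtx3l, Zbp1 and Parp14. Dtx3l is a ubiquitin ligase that works with the ADP-ribosyltransferase Parp9, and Parp14 is another ADP-ribosyltransferase. The 3 genes are neighbours on chromosome 16. Dtx3l had levels of 9.19, 8.66 and 9.05 in Tet2-deficient arrays, against 8.64, 8.34 and 8.51 in wild-type arrays (1.38-fold, 0.47 ± 0.16, adjusted p = 0.193). Parp14 had 9.93, 9.83 and 10.17 in Tet2-deficient arrays, against 9.76, 9.49 and 9.65 in wild-type arrays (0.34 ± 0.14, adjusted p = 0.263). Neither had groups that overlapped, and 9.74% of all features were higher in this way. For Parp9 levels were 8.53, 8.48 and 8.61 in Tet2-deficient arrays, against 8.46, 8.46 and 8.60 in wild-type arrays (0.03 ± 0.11, adjusted p = 0.931). Parp12, a transferase that restrains RNA viruses, had 9.93, 9.57 and 9.86 in Tet2-deficient arrays, against 9.74, 9.72 and 9.86 in wild-type arrays (0.01 ± 0.13, adjusted p = 0.977).

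Among the sensors, Zbp1 binds Z-form nucleic acid and starts necroptosis. Its levels were 10.27, 10.05 and 10.14 in Tet2-deficient arrays, against 9.77, 9.74 and 9.86 in wild-type arrays. The groups did not overlap, and leaving out Tet2-deficient replicate 2 raised the change to 0.41. Zbp1 stood at 1.28-fold the wild-type level (0.36 ± 0.12, adjusted p = 0.179) and passed the threshold with a trended and robust prior only (0.0440; 0.044 to 0.364 over 13 alternatives). Adar, which edits double-stranded RNA so that it goes unsensed, had 7.97, 7.93 and 8.22 in Tet2-deficient arrays, against 7.81, 7.89 and 7.98 in wild-type arrays (0.15 ± 0.13, adjusted p = 0.628). Ifih1, the sensor MDA5 for long double-stranded RNA, had 9.62, 9.16 and 9.67 in Tet2-deficient arrays, against 9.69, 9.48 and 9.89 in wild-type arrays (-0.20 ± 0.17, adjusted p = 0.617). The groups overlapped for Adar and Ifih1. The other 4 genes of this group also overlapped: Ddx58 (the sensor RIG-I), its regulator Dhx58, the kinase Eif2ak2 (PKR) and the helicase Znfx1 had changes of -0.14 to 0.15, with adjusted p of 0.648 to 0.990.

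2'-5'-oligoadenylate synthetases (OAS) make a messenger that activates the ribonuclease RNase L, whose gene was not analysed here. None of the 6 reached an unadjusted p under 0.05, and 3 changes were negative and 3 positive. Oasl1, which lacks the synthetase activity and represses translation of Irf7, had 10.20, 9.92 and 10.18 in Tet2-deficient arrays, against 10.33, 10.27 and 10.46 in wild-type arrays (-0.25 ± 0.13, adjusted p = 0.383). Oas1a had 7.26, 6.72 and 7.27 in Tet2-deficient arrays, against 7.28, 7.26 and 7.44 in wild-type arrays (-0.24 ± 0.16, adjusted p = 0.524). Oas2 had 8.06, 7.63 and 8.16 in Tet2-deficient arrays, against 7.79, 8.11 and 8.37 in wild-type arrays (-0.14 ± 0.19, adjusted p = 0.772). Oasl1 alone had groups that did not overlap. For Oas1a the change was -0.06 without Tet2-deficient replicate 2, so 1 culture set most of it. Oas1g, Oas3 and Oasl2 had changes of 0.03 to 0.05. Oas1a and Oas1g are close copies side by side on chromosome 5, and probes may not tell them apart.

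Proteins that act at membranes had small negative changes in all 4 cases. Ifi27l2a, a small protein of mitochondria and nuclear envelope, had levels of 7.88, 7.46 and 7.54 in Tet2-deficient arrays, against 8.02, 7.78 and 8.16 in wild-type arrays (-0.36 ± 0.16, adjusted p = 0.301). Ifitm3 blocks fusion of enveloped viruses with endosomes, and had 11.47, 11.42 and 11.35 in Tet2-deficient arrays, against 11.54, 11.61 and 11.49 in wild-type arrays (-0.13 ± 0.11, adjusted p = 0.627). Bst2, or tetherin, holds budding virions on the cell surface. It had 10.68, 10.52 and 10.72 in Tet2-deficient arrays, against 10.71, 10.74 and 10.76 in wild-type arrays (-0.10 ± 0.12, adjusted p = 0.737). Rtp4, a chaperone of membrane receptors, had 8.39, 8.06 and 8.30 in Tet2-deficient arrays, against 8.24, 8.42 and 8.29 in wild-type arrays (-0.07 ± 0.13, adjusted p = 0.851). Ifitm3 was the only one of the 4 whose groups did not overlap.

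TRIM ligases and proteins of nuclear bodies had changes of both signs, from -0.19 to 0.24. The antibody receptor Trim21 had 7.36, 7.36 and 7.52 in Tet2-deficient arrays, against 7.46, 7.40 and 7.49 in wild-type arrays (-0.04 ± 0.11, adjusted p = 0.910). Trim30a had 8.71, 8.45 and 8.62 in Tet2-deficient arrays, against 8.58, 8.24 and 8.23 in wild-type arrays (0.24 ± 0.14, adjusted p = 0.449). For Daxx and Sp100, components of nuclear bodies that silence viral DNA, changes were -0.19 ± 0.12 (adjusted p = 0.488) and 0.05 ± 0.14 (adjusted p = 0.905). Daxx had 8.31, 8.35 and 8.55 in Tet2-deficient arrays, against 8.61, 8.51 and 8.68 in wild-type arrays. Sp100 had 9.50, 9.13 and 9.59 in Tet2-deficient arrays, against 9.35, 9.32 and 9.40 in wild-type arrays. In all 4 the groups overlapped.

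Of the remaining effectors, Ifi35 and Nmi encode partners that bind each other, and Xaf1 promotes apoptosis. Ifi35 had levels of 8.50, 8.41 and 8.57 in Tet2-deficient arrays, against 8.72, 8.94 and 8.96 in wild-type arrays. It was at 76.6% of the wild-type level (-0.38 ± 0.12, adjusted p = 0.171), and without Tet2-deficient replicate 2 the change was -0.34, so this culture set little of it. Xaf1 had 8.78, 8.72 and 8.80 in Tet2-deficient arrays, against 8.98, 9.0 and 9.0 in wild-type arrays (-0.22 ± 0.11, adjusted p = 0.356). Nmi had 7.15 in each of the 3 Tet2-deficient arrays, against 7.23, 7.32 and 7.52 in wild-type arrays (-0.21 ± 0.12, adjusted p = 0.452). None of the 3 had groups that overlapped, and 12.2% of all features were lower in this way. The secreted galectin ligand Lgals3bp (0.19 ± 0.12, adjusted p = 0.486) was higher and the torsin ATPase Tor3a (-0.16 ± 0.11, adjusted p = 0.560) lower, each without overlap.

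Promoter sequences were set beside these values because the effectors share a known element. RefSeq windows of 300 bases, from 250 before to 50 after the start of the transcript (build GRCm38.p6), were given for 32 of the 43 genes. The interferon-stimulated response element was searched as GAAA, any 2 bases and GAAA on either strand, and 14 of the 32 (43.8%) held at least 1 match in a window, against 3.99% of 27025 genes. The gamma-activated site, TTCNNNGAA, which reads the same on both strands, was found for 9 of the 32, against 9.55% of all genes, and 4 effectors held both. The median log2 change was -0.12 for the 14 genes with a match to this element (-0.44 to 0.24, 9 negative) and -0.18 for the 18 without (-0.61 to 0.47, 11 negative). The ranges overlapped widely. A match is a run of letters, and no match says only that these letters are not in this window. Isg15 had the most matches (3) and 7 genes tied at 2. Printed below are Isg15, the 5 tied genes of smallest p, which leaves out Oas1g (change 0.05) and Trim21 (-0.04), and Ifit2, the gene of smallest p among those with none. They run 5' to 3' on the strand of the gene, with the match, or its reverse complement, in capitals. Where a gene had several windows, the window with the most matches was kept. Ifit2 had 2 windows, neither with a match, and 1 of them is printed.
Isg15, chr4:156200769-156201068, - strand: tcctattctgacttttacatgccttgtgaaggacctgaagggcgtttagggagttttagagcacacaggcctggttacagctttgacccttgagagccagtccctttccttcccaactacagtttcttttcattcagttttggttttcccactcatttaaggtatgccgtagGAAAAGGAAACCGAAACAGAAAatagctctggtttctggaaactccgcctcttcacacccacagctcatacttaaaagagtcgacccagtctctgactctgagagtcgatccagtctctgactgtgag
Ifit3, chr19:34583279-34583578, + strand: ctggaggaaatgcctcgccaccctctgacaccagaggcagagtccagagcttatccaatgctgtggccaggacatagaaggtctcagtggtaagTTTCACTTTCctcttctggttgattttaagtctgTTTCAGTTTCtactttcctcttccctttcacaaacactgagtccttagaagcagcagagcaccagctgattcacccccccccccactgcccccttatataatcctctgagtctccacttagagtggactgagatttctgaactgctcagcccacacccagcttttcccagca
Ifit1, chr19:34640639-34640938, + strand: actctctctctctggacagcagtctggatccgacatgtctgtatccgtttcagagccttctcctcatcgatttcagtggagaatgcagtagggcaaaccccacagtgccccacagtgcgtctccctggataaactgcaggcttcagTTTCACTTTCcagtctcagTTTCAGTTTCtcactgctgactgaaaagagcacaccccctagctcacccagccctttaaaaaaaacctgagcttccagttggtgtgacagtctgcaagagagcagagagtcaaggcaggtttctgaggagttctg
Oas1a, chr5:120907476-120907775, - strand: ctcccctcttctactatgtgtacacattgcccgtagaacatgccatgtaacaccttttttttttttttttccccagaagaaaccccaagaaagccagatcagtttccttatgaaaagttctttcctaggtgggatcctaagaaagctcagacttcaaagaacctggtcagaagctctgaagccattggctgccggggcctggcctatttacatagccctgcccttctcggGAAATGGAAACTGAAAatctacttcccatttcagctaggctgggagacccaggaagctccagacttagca
Ifitm3, chr7:141010695-141010994, - strand: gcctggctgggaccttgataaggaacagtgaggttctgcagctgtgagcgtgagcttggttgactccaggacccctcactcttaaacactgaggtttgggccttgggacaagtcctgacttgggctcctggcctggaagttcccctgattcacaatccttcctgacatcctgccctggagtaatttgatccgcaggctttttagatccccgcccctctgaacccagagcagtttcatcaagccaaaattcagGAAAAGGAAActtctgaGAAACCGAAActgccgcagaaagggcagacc
Bst2, chr8:71537423-71537722, - strand: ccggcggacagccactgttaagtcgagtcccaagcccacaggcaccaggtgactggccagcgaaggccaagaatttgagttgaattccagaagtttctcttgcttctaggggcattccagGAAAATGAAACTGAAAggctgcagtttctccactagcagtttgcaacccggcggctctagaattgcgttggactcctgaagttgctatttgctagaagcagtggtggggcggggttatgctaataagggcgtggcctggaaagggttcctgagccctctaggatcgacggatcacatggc
Ifit2, chr19:34550444-34550743, + strand: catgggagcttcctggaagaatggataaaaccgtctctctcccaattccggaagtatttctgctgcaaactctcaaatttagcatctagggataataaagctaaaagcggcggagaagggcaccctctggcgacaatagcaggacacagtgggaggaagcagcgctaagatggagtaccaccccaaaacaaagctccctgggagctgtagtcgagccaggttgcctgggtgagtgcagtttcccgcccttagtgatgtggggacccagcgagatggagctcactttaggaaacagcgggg
Isg15 held 3 matches that overlap in 1 run, starting 78 bases before the transcript. Ifit3 and Ifit1 each held 2 separate matches, from 156 bases before the start in Ifit3 and from 104 in Ifit1. In Oas1a and Bst2 the 2 matches overlap, and in Ifitm3 both lie inside the transcript, from its base 3 and base 20. Ifit2 and Ifit3 are neighbours on chromosome 19 with changes of -0.59 and -0.44, the first with no match in its 2 windows and the second with 2 matches.

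The genes upstream of the effectors showed no called difference. Of 43 listed genes for interferon induction, receptors and signalling, 39 were measured, with a median change of 0.10. Among these 0 rose and 0 fell (limma), where 0.647% and 0.305% of all features did. At an unadjusted p under 0.05, 3 were lower (7.69%, where 8.37% of all features were) and 6 higher (15.4%, where 7.63% were). Ifnb1, interferon beta, had levels of 2.12, 2.00 and 2.00 in Tet2-deficient arrays, against 2.24, 2.23 and 2.48 in wild-type arrays. These are below the median of every array, where array signal is mostly background, and the groups did not overlap (-0.27 ± 0.12, adjusted p = 0.323). The receptor chain Ifnar1 had 9.28, 8.95 and 9.03 in Tet2-deficient arrays, against 8.77, 8.73 and 8.70 in wild-type arrays (0.35 ± 0.13, adjusted p = 0.214). Stat2 (-0.06 ± 0.13, adjusted p = 0.856), Irf9 (0.20 ± 0.13, adjusted p = 0.512) and Irf7, which amplifies interferon production (-0.20 ± 0.13, adjusted p = 0.510), had groups that overlapped.

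The smallest p values of the upstream genes belonged to Tlr9, a receptor for DNA in endosomes, and Irf8. Tlr9 had 6.44, 5.33 and 6.24 in Tet2-deficient arrays, against 6.95, 6.93 and 7.31 in wild-type arrays (48.1% of the wild-type level, -1.06 ± 0.26, adjusted p = 0.0939). Irf8, a factor of macrophage and dendritic cell identity, had 9.16, 8.98 and 9.23 in Tet2-deficient arrays, against 9.71, 9.54 and 9.48 in wild-type arrays (-0.45 ± 0.13, adjusted p = 0.124). Tlr9 again was lowest in Tet2-deficient replicate 2 and highest in wild-type replicate 3. The phosphatase Ptpn6 (-0.49 ± 0.16, adjusted p = 0.171), the factor Stat3 (0.41 ± 0.14, adjusted p = 0.203), the adaptor Ticam2 (0.39 ± 0.13, adjusted p = 0.203) and Ifna4, a type I interferon (0.33 ± 0.14, adjusted p = 0.298), had the next smallest p in their lists. Plasmacytoid dendritic cells, strong producers of type I interferon that express Tlr9 and Bst2, were checked by 8 markers, Bst2 among them. Of these 0 reached an unadjusted p under 0.05. Their defining marker Siglech lay between 2.79 and 2.97 in Tet2-deficient arrays and between 2.85 and 3.27 in wild-type arrays. Siglech and Klk1 were below the array medians, whereas Tcf4, Ly6d, Cox6a2, Pacsin1 and Bst2 were above them in every array. Ccr9 ran from 3.60 to 4.24. The 8 markers were lowest on average in Tet2-deficient replicate 2 (mean deviation -0.14), as were the effectors. The part of these cells in the effectors' values was not tested.

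A list of 48 measured paralogs and other antiviral genes shared the array order of the effectors. Its mean deviation was 0.01, -0.25 and 0.05 in Tet2-deficient replicates 1, 2 and 3, against 0.09, -0.03 and 0.12 in wild-type replicates 1, 2 and 3. Of the 48, 0 rose and 2 fell, where 0.647% and 0.305% of all features did, and the median change was -0.06. Sp140, a chromatin reader of the same family as Sp100, fell to 6.76, 6.17 and 6.73 in Tet2-deficient arrays, against 8.0, 7.33 and 7.73 in wild-type arrays (45.5% of the wild-type level, -1.14 ± 0.21, adjusted p = 0.0433). Ifi204, a DNA sensor, fell by 0.72 on the log2 scale (adjusted p = 0.0315). Each lost its call when any 1 array was left out. Sp140 and Sp100 thus differed in size of change, -1.14 and 0.05, though the difference between them was not tested.

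Targets of interferon gamma, the second stimulus, had a median change of 0.11. Of 32 measured, 0 rose and 0 fell, where 0.647% and 0.305% of all features did. At an unadjusted p under 0.05, 9 were higher (28.1%, where 7.63% of all features were) and 2 lower (6.25%, where 8.37% were). The mean deviation of this list was 0.10, -0.03 and 0.13 in Tet2-deficient replicates 1, 2 and 3, against -0.04, -0.10 and -0.06 in wild-type replicates 1, 2 and 3. Tet2-deficient replicate 2 was again the lowest of its group here. By the mean it lay just above all wild-type replicates. By the median deviation (-0.03) it lay between wild-type replicates 1 (-0.02) and 2 (-0.10). The guanylate-binding proteins Gbp4 (0.90 ± 0.18, adjusted p = 0.0553) and Gbp7 (0.62 ± 0.14, adjusted p = 0.0696) and Ciita, the activator of MHC class II genes (0.89 ± 0.19, adjusted p = 0.0615), had the smallest p. Whether the lists differ from each other was not tested.

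**Figure D4:**
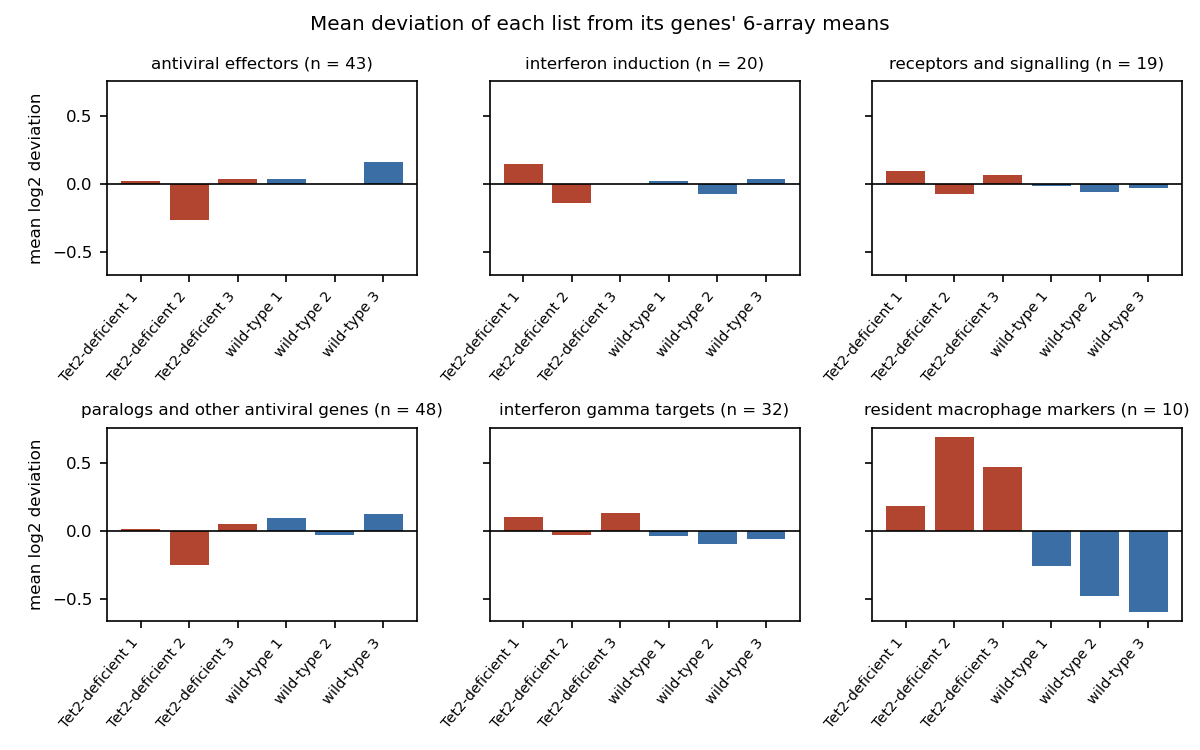
Mean log2 deviation of the genes of 6 lists from their 6-array means (y axis) in each array (x axis; red, Tet2-deficient; blue, wild-type). For the antiviral effectors Tet2-deficient replicate 2 is at -0.26 and wild-type replicate 3 at 0.16, while resident macrophage markers are above 0 in all Tet2-deficient arrays and below 0 in all wild-type arrays.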

How the data were processed

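The files hold log2 expression per gene-level feature, which the authors deposited after RMA summarisation (affy 1.36.1 by the submitters' processing notes). RMA gives arrays nearly one distribution, so a shift shared by most genes would be lost. The sources used here do not name the array type or the build. Of 25206 features 23185 carried 1 gene symbol in the platform annotation and 2021 none. Tet2-deficient and wild-type arrays were compared by lmFit and eBayes (limma 3.58.1, R 4.3.3), a two-sided test without covariates whose p-values were adjusted by Benjamini-Hochberg across the whole table. The number of arrays limits the precision. The labels call the samples biological replicates. The code was tested on simulated data with known changes. It called 66% of the changes of log2 size 1 and 95% of those of size 2. Changes as small as those of the effectors, at most 0.83 in size, were not simulated. A gene that was not called may therefore still differ.

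Members and lists were chosen with earlier results of these data known. Levels in every array are given for all members of role groups of up to 4 and for the 3 of smallest p in larger ones. In the other lists, genes past the threshold, or otherwise the 3 of smallest p, are named, and Tet2, Stat2, Irf9, Irf7, Ifnb1 and Ifnar1 always. Uba7, Ube2l6, Siglech and the markers named beside it, the further effectors and the genes under other observations were picked once values were known. Promoters came from the RefSeq table of build GRCm38.p6. The alternatives were median centring, cyclic loess, a filter on dim features, a trended and robust prior, array weights, a replicate block, no moderation, other thresholds and leaving out each array.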

Additional observations from a re-analysis of the deposited data

How the results depend on the processing

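Of the 43 antiviral effectors 0 were past the threshold with arrays centred on their medians, with cyclic loess, with array weights, with a replicate block, with no moderation of the variance, at an adjusted p of 0.01 and without any 1 array (0 to 0). The count was 1 with dim features left out and 1 at an adjusted p of 0.10 (Mx1 in both), and 2 with a trended and robust prior (Mx1 lower, Zbp1 higher). Genes of interferon induction, receptors and signalling counted 1, 1 and 2 under these same 3 settings and 0 under the others. The 2 called paralogs became 0 with centred arrays, 0 with no moderation, 0 at an adjusted p of 0.01 and 0 without any 1 array (0 to 0). Interferon gamma targets past the threshold, 0 as reported, were 1 with centred arrays, 4 without dim features, 5 with the trended and robust prior, 2 with array weights, 1 with the replicate block, 3 at an adjusted p of 0.10 and 0 to 2 without 1 array, the 2 being Gbp4 and Ciita without wild-type replicate 1. The median change of the effectors was -0.18 to -0.04 without 1 array, the -0.04 without Tet2-deficient replicate 2, and -0.07 with centred arrays and -0.19 with cyclic loess, under which the median of all features was 0.03 and 0.00. The counts at an unadjusted p, added after the data were seen, were for lower effectors (11 as reported) 5 with centred arrays, 6 with no moderation and 4 to 9 without 1 array, and for higher effectors (3 as reported) 1 with no moderation and 1 to 4 without 1 array, with 1 each without Tet2-deficient replicate 1 or 3 or wild-type replicate 2. Leaving out arrays leaves fewer samples. Of the 34 effectors given in every array, 6 with log2 changes within 0.14 of 0 changed sign under some setting.

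The replicate numbers are shared by the groups, and same-numbered arrays correlated at 0.0838, 0.191 and 0.0248 in their deviations from the group means. Replicates 1 and 2 of each group correlated best with their own number, while replicate 3 of each group correlated better with replicate 1 of the other. These low values do not settle whether the numbers pair the samples. The main comparison did not pair them, and with the replicate block 0 effectors and 2 paralogs were past the threshold, as without it.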

Other observations

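Families of the antiviral effectors held further genes, chosen here after their values were seen. The Phf11 genes, a family known to respond to interferon, were lower without overlap in all 3 cases measured, as were 12.2% of all features: Phf11d had a log2 change of -0.58 ± 0.16 (adjusted p = 0.114), Phf11a of -0.42 ± 0.15 (adjusted p = 0.226) and Phf11b of -0.36 ± 0.14 (adjusted p = 0.266). Phf11d had levels of 7.03, 6.66 and 7.13 in Tet2-deficient arrays, against 7.67, 7.34 and 7.56 in wild-type arrays. Among copies of Trim30a, Trim30c had levels of 8.08, 7.87 and 8.39 in Tet2-deficient arrays, against 7.73, 7.74 and 7.84 in wild-type arrays, without overlap (0.34 ± 0.15, adjusted p = 0.297). Trim30d had a change of 0.11 ± 0.15 (adjusted p = 0.779). Trim30b (-0.66 ± 0.28, adjusted p = 0.293) had levels of 3.13, 2.89 and 3.37 in Tet2-deficient arrays, against 4.41, 3.13 and 3.84 in wild-type arrays, near or below the array medians in most. Parp10, of the same family as Parp14, was higher without overlap (0.19 ± 0.11, adjusted p = 0.459). None of these genes was called.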
